A study of Mus musculus with 47 samples.

Results

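The genes described here encode the classical MHC class I molecule and the machinery that supplies it with peptides: B2m, H2-D1, H2-K1, Tap1, Tap2, Tapbp, Psmb8, Psmb9 and Psmb10. They were taken from the deposited expression table by gene symbol, which gave 9 of its 22632 genes. The study followed mouse embryonic fibroblasts carrying reprogramming factors under doxycycline control (secondary MEFs), from which clones were grown on the drug and then with or without it. It held 47 messenger RNA libraries in 12 groups: 4 clones named SC at 6 sampling points, 4 clones named SI at 5, and 3 libraries of feeder mouse embryonic fibroblasts. The labels do not spell out SC and SI, and the series title speaks of competency for stabilization.

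Both classes were sampled after 14 days on doxycycline (d14), after 21 days (d21), after 21 days followed by 1 day without the drug (d22) or 2 days without it (d23), and after 27 days on the drug (d27). The SC clones were sampled once more as secondary iPS cells, which had 21 days with doxycycline and 6 days without. Feeder fibroblasts had 0 days of the drug. Each clone library stands for 1 clone at 1 point, so the spread within a group is the spread between clones. The labels do not say whether the 3 feeder libraries came from separate cultures, and their spread, which is small, may be technical. The p-values given here measure only the spread between these libraries. Values are RPKM, the reads on a gene scaled by its length and by the size of the library, so levels may be compared between genes.

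A class I molecule consists of a heavy chain, here H2-K1 or H2-D1, and the light chain B2m, and it reaches the cell surface only with a short peptide bound. Peptides are cut from cytosolic proteins by the proteasome. In the immunoproteasome Psmb8, Psmb9 and Psmb10 take the places of the constitutive catalytic subunits Psmb5, Psmb6 and Psmb7. The transporter made of Tap1 and Tap2 carries the peptides into the endoplasmic reticulum, where tapasin (Tapbp) holds the heavy chain at the transporter while it is loaded. Interferon-gamma, acting in part through Irf1, raises the whole set, and embryonic stem cells are known for little class I at their surface.

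Promoter windows of the 3 genes of the molecule itself, and the one shared by a transporter gene and an immunoproteasome gene, are shown because these genes turn out to differ in how they varied. Sequences and coordinates are from RefSeq on GRCm38.p6, which is not the mm9 build named for the deposited values. Each window runs from 250 bases before to 50 bases after the annotated start of the gene, 5′ to 3′ on the strand of the gene, and 8 of the 9 genes had one, Tap2 being the exception. Capitals mark AANNGAAA on either strand (the core of sites bound by interferon regulatory factors), the NF-kappaB motif, TGACG on either strand (the core of a cyclic AMP response element), and ATTGG where it follows TGACG after 20 bases. The B2m window is chr2:122147437-122147736 on the plus strand, the H2-D1 window chr17:35262844-35263143 on the plus strand, and the H2-K1 window chr17:34000298-34000597 on the minus strand. The Tap1 window is chr17:34187306-34187605 on the plus strand, and the Psmb9 window, chr17:34187281-34187580 on the minus strand, shares 275 of its 300 bases.
B2m: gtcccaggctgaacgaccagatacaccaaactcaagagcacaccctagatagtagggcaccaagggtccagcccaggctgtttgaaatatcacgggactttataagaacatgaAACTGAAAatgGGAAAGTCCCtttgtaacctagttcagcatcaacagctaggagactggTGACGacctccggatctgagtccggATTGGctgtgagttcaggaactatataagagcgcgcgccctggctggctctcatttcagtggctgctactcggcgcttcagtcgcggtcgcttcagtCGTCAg
H2-D1: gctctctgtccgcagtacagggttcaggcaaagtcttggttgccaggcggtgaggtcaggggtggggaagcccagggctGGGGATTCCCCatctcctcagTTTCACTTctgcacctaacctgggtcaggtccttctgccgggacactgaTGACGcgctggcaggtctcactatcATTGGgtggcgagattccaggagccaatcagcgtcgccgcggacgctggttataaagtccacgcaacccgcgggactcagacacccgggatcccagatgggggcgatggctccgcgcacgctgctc
H2-K1: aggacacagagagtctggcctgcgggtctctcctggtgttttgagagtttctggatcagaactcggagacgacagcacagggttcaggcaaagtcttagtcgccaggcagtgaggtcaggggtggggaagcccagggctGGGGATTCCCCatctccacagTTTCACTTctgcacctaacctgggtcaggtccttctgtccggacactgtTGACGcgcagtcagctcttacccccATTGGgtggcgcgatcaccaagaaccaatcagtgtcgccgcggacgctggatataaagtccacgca
Tap1: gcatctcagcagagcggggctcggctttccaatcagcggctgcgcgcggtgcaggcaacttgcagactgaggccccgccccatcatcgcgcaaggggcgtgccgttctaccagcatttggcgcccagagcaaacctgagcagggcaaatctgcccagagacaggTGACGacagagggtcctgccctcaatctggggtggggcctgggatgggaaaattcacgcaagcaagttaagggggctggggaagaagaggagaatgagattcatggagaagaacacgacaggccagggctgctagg

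B2m, H2-D1 and H2-K1 each held all of these motifs in the same window, with TGACG and ATTGG separated by exactly 20 bases. That spaced pair was found in 0.0944% of 32851 mouse promoter windows of the same length, or 31 windows. These include the windows of B2m, H2-D1 and H2-K1 themselves, and the spacing counted was the one they hold. The interferon regulatory factor core was in 23.9% of all windows, the NF-kappaB motif in 8.46%, TGACG in 20.8% and ATTGG on either strand in 37.4%. In H2-D1 and H2-K1 the NF-kappaB motif was found on both strands over the same bases, and no other motifs overlapped. The window of Tap1 and that of Psmb9 held TGACG without the pair, and the windows of Tapbp, Psmb8 and Psmb10 held none of the first 3 motifs. A match is a description of the letters in a window and says nothing of which factor bound there.

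The feeder fibroblasts held fibroblast markers throughout: the summed level of 12 such genes ran from 5965 to 6516 RPKM, and 10 pluripotency markers summed to at most 1.21 RPKM. The iPS libraries summed to 963 to 1622 RPKM for pluripotency markers, and their fibroblast sum ran from 687 to 1593 RPKM. No read totals were used. Spacing of low values implied 26.8 to 98.1 megareads in 42 of the 47 libraries (median 68.0), so that 1 read in a gene of 1 kb is worth 0.0102 to 0.0373 RPKM. Library sums of RPKM ran from 189172 to 245695. All 9 genes were measured in every library, and Psmb9 is the low one, with values from 0.18 to 3.5 RPKM. H2-K1 and H2-D1 are close in sequence to each other and to other class I genes, so reads could be divided between them in ways the deposited values do not show.

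Messenger RNA of the light chain was by far the most abundant of the 9. B2m stood at 689.72, 569.25 and 623.73 RPKM in the feeder libraries. In the iPS libraries of clones SC1 to SC4 it stood at 162.92, 313.13, 143.92 and 160.84 RPKM. The 2 groups did not overlap, which held for 80.4% of all genes tested, 40% with iPS cells lower. The iPS library of SC2 was the nearest to the feeders. Over the 12 groups the mean B2m level ran from 195 ± 79.1 RPKM in iPS cells (SD, n = 4) to 628 ± 60.3 RPKM in feeders (SD, n = 3), with SC and SI at d14 and SI at d22 and d23 between 430 and 476 RPKM, and the other groups at 210 to 291 RPKM. Every pair of neighbours in that order overlapped.

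The heavy chains had the same extremes. H2-D1 measured 138.01, 141.21 and 141.36 RPKM in feeders and 40.12, 58.3, 43.67 and 45.19 RPKM in iPS cells of SC1 to SC4, again without overlap. H2-K1 measured 69.18, 63.63 and 67.42 RPKM in feeders, against 24.94, 31.46, 39.02 and 37.52 RPKM in iPS cells. For H2-D1 the order of group means was feeder at 140 ± 1.89, SI d23 at 114 ± 5.94, SC d14 at 111 ± 25.7, SI d22 at 107 ± 30.8 and SI d14 at 95.5 ± 45.3 RPKM, then SC d22, SC d23, SC d21, SI d21, SI d27, SC d27 and iPS between 65.2 and 46.8 RPKM. Of the 11 pairs of neighbours, only feeder and SI d23 were without overlap. Such a lack of overlap with SI d23 lower was seen in 19.2% of all genes tested. For H2-K1 the order began with feeder at 66.7 ± 2.84, SI d22 at 66.1 ± 9.66 and SI d23 at 61.2 ± 9.51 RPKM, and ended with iPS at 33.2 ± 6.42 RPKM, and every pair of neighbours overlapped. The 2 heavy chains did not keep a fixed proportion: the ratio of H2-D1 to H2-K1 was 2.10 ± 0.112 in feeders (SD, n = 3) and 1.33 ± 0.214 in SC at d23 (SD, n = 4).

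**Figure D1:**
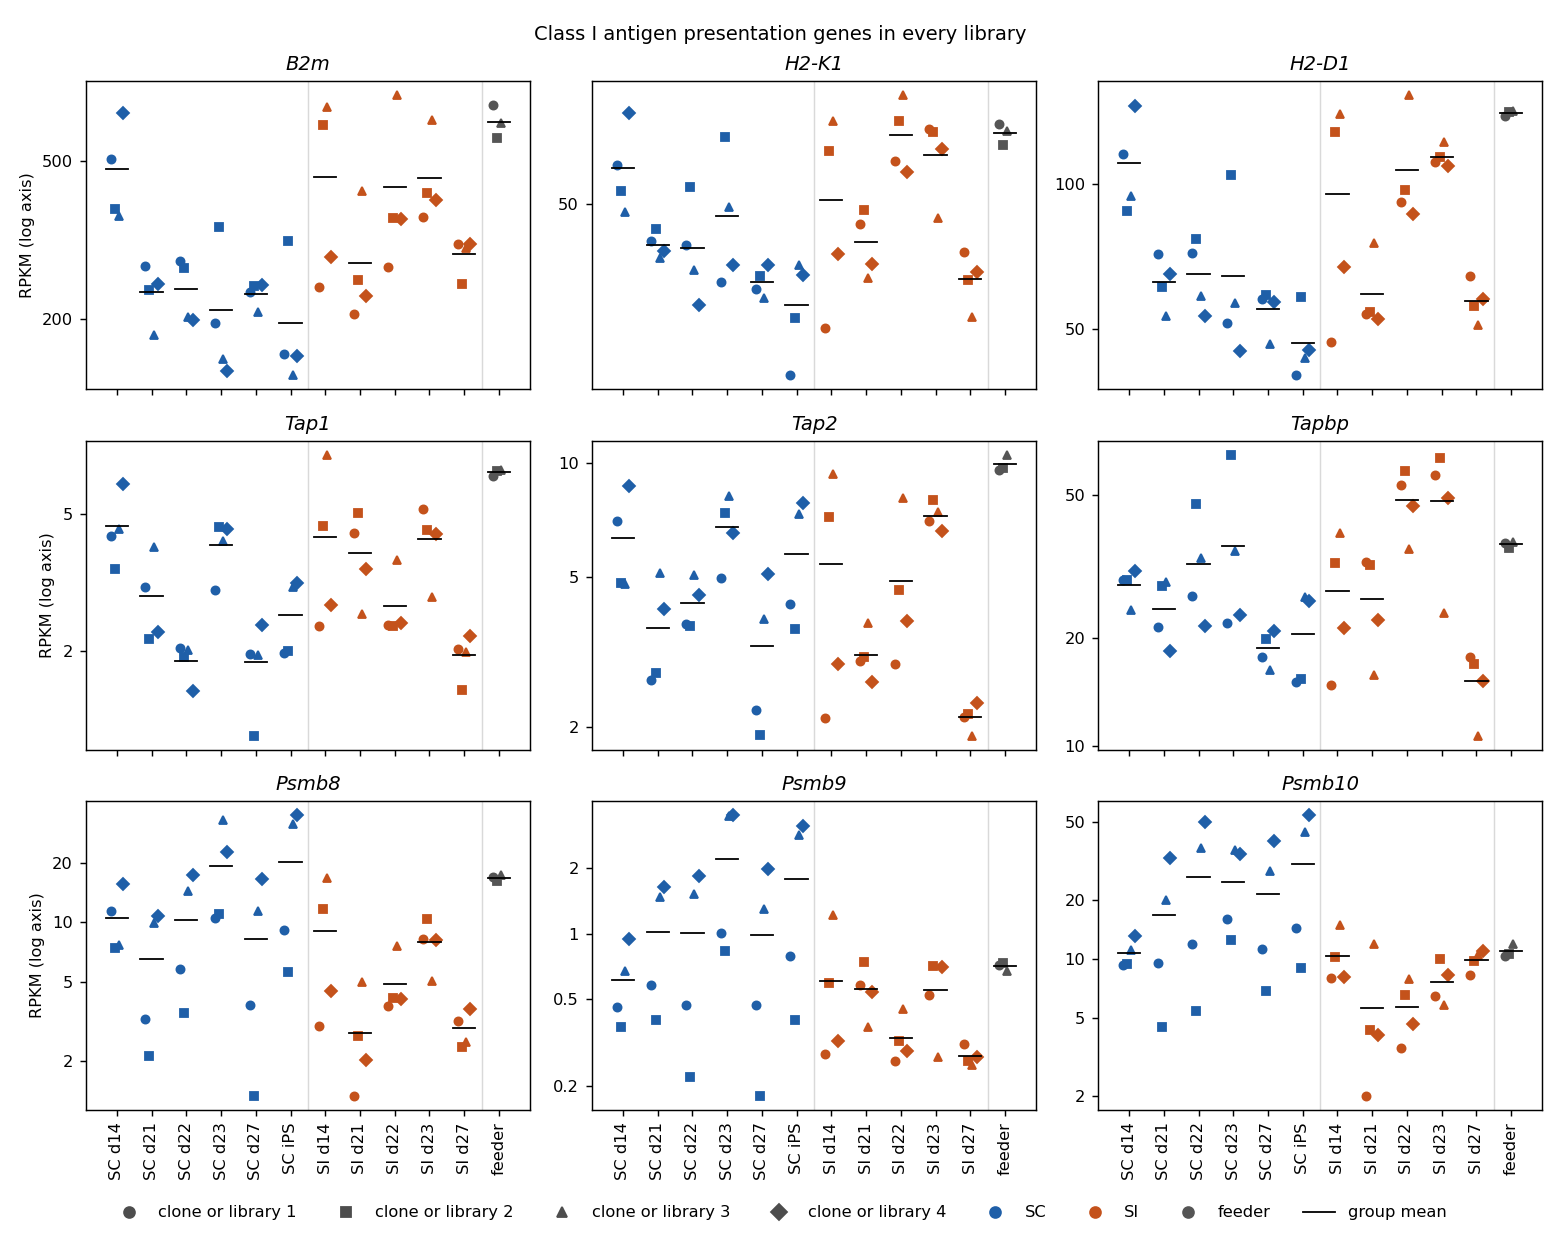
RPKM (log axis) of the 9 genes in all 47 libraries by group, where each marker shape is a clone or feeder library and the bar is the group mean. The group means of B2m and H2-D1 are highest in feeders (628 and 140 RPKM), though SI3 at d22 lies above every feeder library in both (731.81 and 152.76 RPKM), and Psmb8, Psmb9 and Psmb10 spread widely among the SC clones from d21 on.

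The peptide transporter was expressed at a few RPKM. Tap1, its first chain, measured 6.45, 6.66 and 6.7 RPKM in feeders and between 1.14 and 7.4 RPKM in the clone libraries, and its group mean was lowest in SC at d27 (1.86 ± 0.519 RPKM, SD, n = 4). Tap2, the partner chain, measured 9.63, 9.71 and 10.52 RPKM in feeders, above every clone library. The group means of Tap2 ran from SI d23 at 7.27 ± 0.569 and SC d23 at 6.78 ± 1.38 RPKM through iPS at 5.77 ± 2.13 RPKM to SI d21 at 3.12 ± 0.474 and SI d27 at 2.13 ± 0.170 RPKM. Feeders stood apart from the next group for both Tap1 and Tap2, and SI d21 from SI d27 for Tap2. Other neighbours overlapped. Of all genes tested, 26.4% lay without overlap below feeders in SC d14, the next group for Tap1. For SI d23, the next group for Tap2, it was 19.2%, and for SI d27 below SI d21 it was 6.04%.

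Tapbp was the one gene of the set whose highest group means were not in feeders or SC clones. SI clones 1 to 4 measured 53.55, 58.58, 35.46 and 46.79 RPKM at d22 and 57.07, 63.4, 23.49 and 49.04 RPKM at d23, against 36.85, 35.61 and 37.08 RPKM in feeders. Clones SI1, SI2 and SI4 were above the feeders at both points, and SI3 was below them. In the same 4 clones held on the drug to d27 Tapbp measured 17.77, 16.96, 10.73 and 15.26 RPKM. SC2 also reached 64.75 RPKM at d23, when the other SC clones held 22.02 to 35.04 RPKM.

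The immunoproteasome subunits had another order altogether. Psmb8, the chymotrypsin-like subunit, was at 9.16, 5.63, 31.61 and 34.84 RPKM in the iPS libraries of SC1 to SC4, and at 16.94, 16.19 and 17.27 RPKM in feeders. SC3 and SC4 lay above the feeders and SC1 and SC2 below. Psmb10, the trypsin-like subunit, was at 14.43, 8.93, 44.29 and 53.93 RPKM in the same iPS libraries and at 10.38, 10.59 and 11.94 RPKM in feeders. Psmb9, the remaining subunit, was at 0.79, 0.4, 2.83 and 3.13 RPKM in iPS cells and at 0.67 to 0.73 RPKM in feeders. In all 3 genes SC3 and SC4 thus held several times the level of SC1 and SC2.

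Because of that spread, the group means say less here. Psmb8 averaged 20.3 ± 15.0 RPKM in iPS cells and 19.3 ± 10.7 RPKM in SC at d23 (SD, n = 4 each), 16.8 ± 0.553 RPKM in feeders (SD, n = 3), and 2.91 ± 0.619 and 2.75 ± 1.59 RPKM in SI at d27 and d21, the lowest groups. Only feeder and the next group, SC d14, and SI d22 and SI d27 were without overlap. A lack of overlap with SC d14 below feeders was seen in 26.4% of all genes tested, and the share for SI d22 and SI d27 was not counted. Psmb10 averaged 30.4 ± 22.1 RPKM in iPS cells, 16.6 to 26.0 RPKM in SC from d21 to d27 and 5.60 ± 4.34 RPKM in SI at d21. Psmb9 averaged 2.21 ± 1.49 RPKM in SC at d23 and 0.273 ± 0.0263 RPKM in SI at d27. For Psmb9 and Psmb10 every pair of neighbours overlapped.

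That division among the SC clones was present before the drug was withdrawn. At d14 Psmb10 ran only from 9.35 to 13.12 RPKM over the 4 SC clones. At d21 it was 9.54, 4.51, 19.93 and 32.57 RPKM in SC1 to SC4, at d22 it was 11.85, 5.45, 36.78 and 50.02 RPKM, and at d27, on the drug, 11.24, 6.84, 28.16 and 39.77 RPKM. Psmb8 at d14 was 11.42, 7.39, 7.69 and 15.68 RPKM, with SC3 among the low clones. From d21 it separated in the same way as Psmb10, with 3.26, 2.11, 9.91 and 10.74 RPKM at d21 and 3.8, 1.33, 11.4 and 16.55 RPKM at d27. Psmb9 at d21 was 0.58, 0.4, 1.47 and 1.63 RPKM. SC3 and SC4 were the 2 highest SC clones for each of the 3 genes at d21, d22, d23 and d27 and as iPS cells. They were also the 2 highest at d14 for Psmb10 and for Psmb9, at 0.67 and 0.94 against 0.46 and 0.37 RPKM. How many of all genes separated SC3 and SC4 from SC1 and SC2 was not counted. These clones were set apart after their values were seen, and nothing in the labels distinguishes them, so no test was made.

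Irf1, a transcription factor induced by interferon-gamma, divided the SC clones likewise, with 5.99, 2.88, 15.76 and 21.04 RPKM at d21 and 16.48, 7.1, 36.6 and 38.54 RPKM as iPS cells. Of the constitutive counterparts, Psmb6 was higher in SC3 and SC4 than in SC1 and SC2 at all 6 points, with 59.8, 41.09, 87.27 and 94.95 RPKM in iPS cells. Psmb5 separated them only at d27, and in iPS cells its level was 46.53, 37.1, 44.93 and 52.97 RPKM. Psmb7 was higher in them at every point from d21 on, with 109.89, 89.64, 111.26 and 122.37 RPKM in iPS cells.

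The molecule and its loading genes took either side of this division. B2m was lower in SC3 and SC4 than in SC1 and SC2 at d22, d23 and in iPS cells, and the clones overlapped at d14, d21 and d27. H2-D1 was lower in them at d22 and d27, and H2-K1 at d21 and d22, but H2-K1 was higher in them in iPS cells, at 39.02 and 37.52 against 24.94 and 31.46 RPKM. Tap2 was higher in SC3 and SC4 at d21, d22, d27 and in iPS cells, where Tap1 and Tapbp were higher too.

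Set against its constitutive counterpart, Psmb8 was the minor form on average in every group. The ratio of Psmb8 to Psmb5 averaged 0.495 ± 0.302 in SC at d23 (SD, n = 4), where it ran from 0.235 to 0.903 between clones, and 0.0699 ± 0.0197 in SI at d27 (SD, n = 4). Feeders gave 0.360 ± 0.0230 (SD, n = 3). The ratio of Psmb10 to Psmb7 averaged 0.267 ± 0.177 in iPS cells and 0.0604 ± 0.0431 in SI at d21 (SD, n = 4 each), and 0.162 ± 0.0171 in feeders. Psmb9 was scarce beside Psmb6, at a mean ratio of 0.00559 in SI at d27 to 0.0312 in SC at d23.

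**Figure D2:**
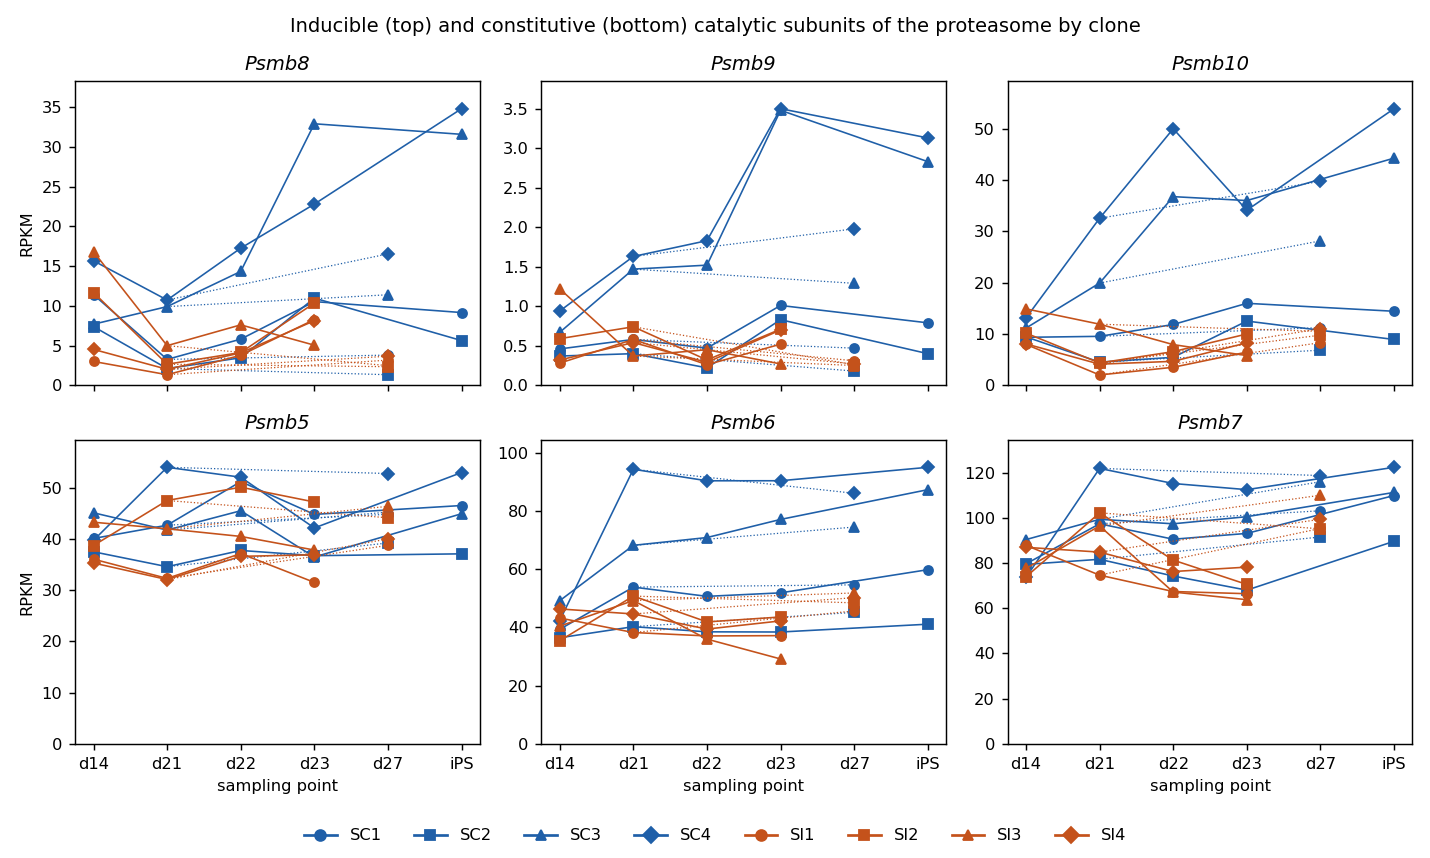
RPKM of Psmb8, Psmb9 and Psmb10 (top) and of Psmb5, Psmb6 and Psmb7 (bottom) in each clone, with solid lines over d14, d21, d22, d23 and iPS and a dotted line from d21 to d27, where doxycycline was kept. SC3 and SC4 lie above SC1 and SC2 for the upper 3 genes from d21 on (Psmb10 in iPS cells 44.29 and 53.93 against 14.43 and 8.93 RPKM), and Psmb6 and Psmb7 show the same order.

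The first comparison asks whether SC and SI clones differed while still on the drug. Differences were tested with limma on log2(RPKM + 1), a scale that understates the change of low genes, with Benjamini-Hochberg adjusted p-values over all genes tested. Psmb9 was under the filter on low values in each SC and SI comparison and was not tested there. At d14 the 8 genes tested lay 0.09 to 0.40 higher in SC on the log2 scale, each with an adjusted p of 0.999 in limma. No gene in the table passed (0% of 11714), and 169 had an unadjusted p under 0.05. At d21 Psmb10 was 1.32 ± 0.59 (SE) and Psmb8 0.87 ± 0.47 (SE) higher in SC, with limma adjusted p of 0.379 and 0.424, while the other genes ran from -0.32 to 0.16. Again 0 of the 9 and 0% of all genes passed, with 1572 genes at an unadjusted p under 0.05. Without SC2, the clone with the lowest immunoproteasome levels, 222 genes passed at d21 and none of them was one of the 9.

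One day after withdrawal the means of the molecule were lower in SC and those of the immunoproteasome higher. SC2 did not share the higher side: its Psmb8 (3.46 RPKM) and Psmb9 (0.22 RPKM) lay below every SI clone. Its Psmb10, 5.45 RPKM, lay within the SI range of 3.51 to 7.93 RPKM. Psmb8 in SC1, 5.81 RPKM, lay within the SI range of 3.78 to 7.61 RPKM. H2-K1 was at 59.6, 70.02, 77.93 and 57.02 RPKM in SI1 to SI4 and at 42.4, 53.58, 38.29 and 33.17 RPKM in SC1 to SC4. H2-D1 was at 91.88, 97.14, 152.76 and 86.43 RPKM in SI and 71.79, 76.99, 58.6 and 53.25 RPKM in SC. No SC clone reached the lowest SI clone in either gene, nor in Tap1, and such a lack of overlap with SC lower was seen in 8.01% of all genes. The differences were -0.66 ± 0.17 (SE) for H2-K1, -0.68 ± 0.21 for H2-D1, -0.77 ± 0.30 for B2m, -0.62 ± 0.25 for Tapbp and 1.63 ± 0.60 for Psmb10, with limma adjusted p between 0.1 and 0.126. No gene passed at d22 (0%), and 4140 had an unadjusted p under 0.05. Without SC2, 5 of the 9 passed along with 4147 genes: H2-D1, H2-K1 and Tapbp lower in SC, and Psmb8 and Psmb10 higher.

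After 2 days without the drug 4 of the 8 genes tested passed the threshold, beside 42.5% of all genes. B2m was at 360.44, 413.95, 632.19 and 397.69 RPKM in SI1 to SI4 and at 195.02, 340.94, 158.32 and 147.51 RPKM in SC1 to SC4, with no overlap. Such a lack of overlap with SC lower was seen in 14.2% of all genes tested. B2m was lower in SC by a log2 difference of -1.14 ± 0.31 (SE, limma adjusted p = 0.0278). H2-D1 was at 110.93, 113.61, 122.38 and 108.9 RPKM in SI and at 51.64, 104.38, 56.75 and 45.01 RPKM in SC, where SC2 alone came near the SI clones. Its difference was -0.89 ± 0.25 (SE, limma adjusted p = 0.0295).

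The catalytic subunits were higher in SC at d23. Psmb8 was at 10.54, 10.98, 32.94 and 22.82 RPKM in SC1 to SC4 and at 8.28, 10.35, 5.05 and 8.13 RPKM in SI1 to SI4. SC1 and SC2 were barely above the highest SI clone, and the difference was 1.07 ± 0.37 (SE, limma adjusted p = 0.046). Psmb10 was at 15.98, 12.52, 36.02 and 34.13 RPKM in SC against 6.47, 10, 5.79 and 8.27 RPKM in SI, a difference of 1.46 ± 0.34 (SE, limma adjusted p = 0.0241). Psmb9, not tested, was at 1.01, 0.83, 3.48 and 3.5 RPKM in SC and 0.27 to 0.71 RPKM in SI, without overlap. A lack of overlap with SC higher was seen in 21.2% of the genes tested. Of the constitutive counterparts Psmb5 differed by 0.07, Psmb6 by 0.69 and Psmb7 by 0.40, with limma adjusted p of 0.712, 0.0668 and 0.0882.

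The remaining genes did not pass at d23. H2-K1 differed by -0.38 ± 0.21 (SE, limma adjusted p = 0.161), Tapbp by -0.45 ± 0.40 (0.37), Tap2 by -0.10 ± 0.15 (0.577) and Tap1 by -0.04 ± 0.18 (0.877). Thus 2 of the 8 tested were called lower and 2 higher in SC. Of all genes 42.5% were called, 23% higher and 19.5% lower, shares near those of the 8. The median over the 8 was -0.24 beside -0.01 for all genes. The calls rest on the full set of clones: all 4 were lost on leaving out SC1, SC3, SC4, SI2, SI3 or SI4, and 1 was kept without SI1, while without SC2 there were 6. Over these fits the number of all genes called ran from 2 to 7978. Irf1 was higher in SC by 1.30 ± 0.36 (SE, limma adjusted p = 0.029).

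Fibroblast markers differed between the classes at d23 in the same direction as B2m and H2-D1. The 12 fibroblast markers summed to 4134 to 7535 RPKM in SI and to 2124.56, 3907.24, 1297.52 and 940.08 RPKM in SC1 to SC4, and 9 of the 12 were called lower in SC. SC2, which had the highest B2m, H2-D1 and Tapbp among the SC clones, also had the highest fibroblast sum. Among the SI clones SI3 had the highest fibroblast sum and the highest B2m and H2-D1, at 632.19 and 122.38 RPKM. Its H2-K1 and Tapbp, at 47.38 and 23.49 RPKM, were the lowest of the SI clones. The 13 leukocyte markers summed to 188 to 353 RPKM in SI and 85.9 to 166 RPKM in SC, 5 of the 9 tested being lower in SC. The feeder fibroblasts summed to 192 to 205 RPKM for the same markers, with Lyz2 at 157 ± 6.57 RPKM (SD, n = 3). In SI at d23 Lyz2 averaged 194 ± 67.8, Laptm5 11.5 ± 1.61, Cd68 7.23 ± 1.49 and Ptprc, the pan-leukocyte marker, 0.668 ± 0.327 RPKM (SD, n = 4), and Cd3e was under 0.1 RPKM in every library. The part of either cell type in the result was not tested. In such bulk libraries more cells of a type and more RNA per cell cannot be told apart.

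At d27, with the drug kept on, none of the 9 passed, and 0.634% of all genes did (73), with 2661 at an unadjusted p under 0.05. B2m was at 233.74, 241.23, 207.4 and 242.71 RPKM in SC and at 309.08, 245.2, 301.54 and 307.62 RPKM in SI, without overlap, a difference of -0.33 ± 0.10 (SE, limma adjusted p = 0.13). Such a lack of overlap with SC lower was seen in 8.41% of all genes tested. Psmb8 differed by 0.86 ± 0.57 and Psmb10 by 0.76 ± 0.47 (SE, limma adjusted p of 0.372 and 0.344). Without SC2, B2m at -0.35 and Psmb8 at 1.39 passed, with adjusted p of 0.0486 and 0.044, among 2796 genes.

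**Figure D3:**
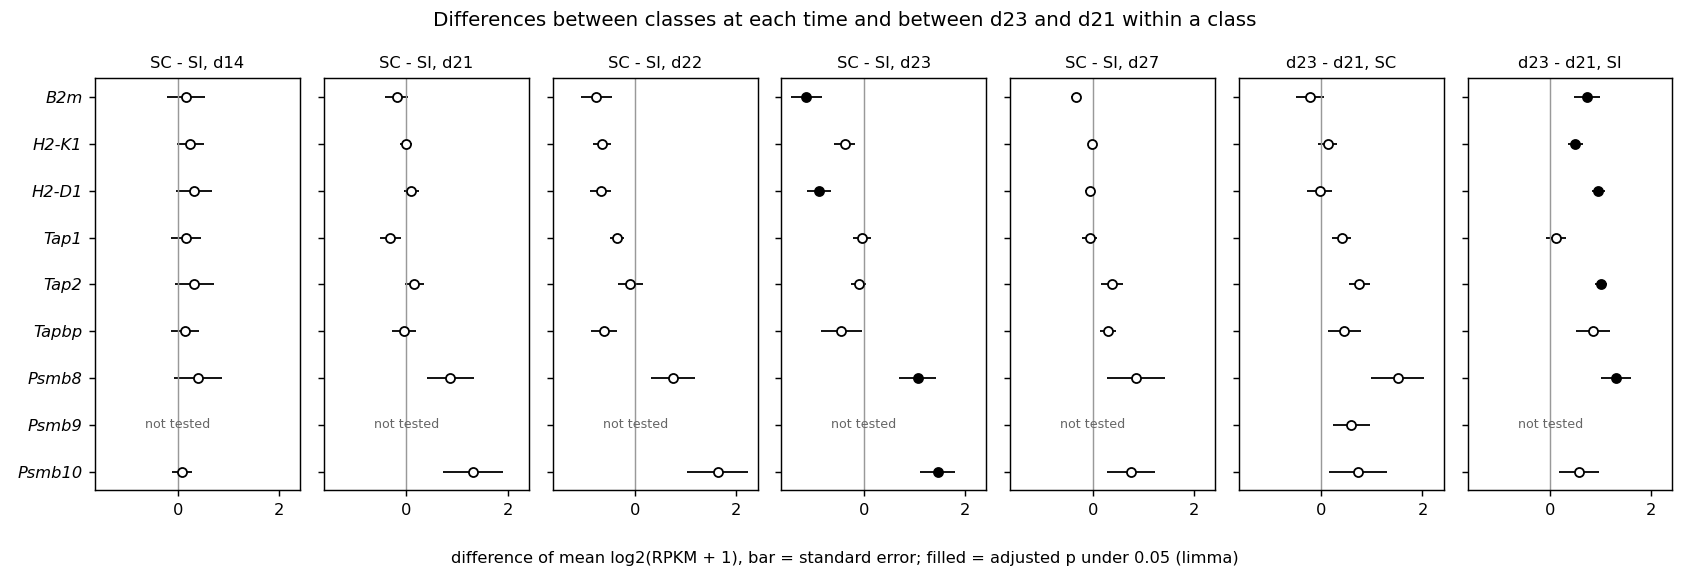
Difference in mean log2(RPKM + 1) with its SE for each gene, in 5 panels of SC minus SI by day and 2 panels of d23 minus d21 within each class, where filled points have an adjusted p under 0.05. B2m and H2-D1 lie left of 0 and Psmb8 and Psmb10 right of it at d23 of SC minus SI, and 5 genes lie right of 0 with filled points in SI.

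Most of the set was higher in the SI clones after 2 days without the drug than at d21. H2-D1 went from 53.79, 54.34, 75.38 and 52.62 RPKM at d21 to 110.93, 113.61, 122.38 and 108.9 RPKM at d23 in SI1 to SI4, a fold of 1.62 to 2.09 in the 4 clones. The log2 difference was 0.95 ± 0.13 (SE, limma adjusted p = 0.000613). Tap2 went from 2.99, 3.06, 3.77 and 2.64 to 7.05, 7.98, 7.42 and 6.64 RPKM, without overlap, a difference of 1.01 ± 0.12 (SE, limma adjusted p = 0.000267). A lack of overlap with d23 higher was seen in 20.5% of all genes tested. B2m rose by 0.73 ± 0.26 (adjusted p = 0.0391) and H2-K1 by 0.50 ± 0.15 (adjusted p = 0.0189) in the same limma fit.

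Psmb8 also rose in SI, from 1.33, 2.65, 4.99 and 2.01 RPKM to 8.28, 10.35, 5.05 and 8.13 RPKM, by 1.31 ± 0.30 on the log2 scale (SE, limma adjusted p = 0.00583). SI3 was the exception, at 1.01 times its d21 level, where the other clones reached 3.91 to 6.23 times. Psmb10 gave 3.22, 2.30, 0.486 and 2.01 times the d21 level in SI1 to SI4, and its difference of 0.57 ± 0.39 did not pass (SE, limma adjusted p = 0.24). Tapbp gave 1.48 to 2.18 times the d21 level in the 4 clones, with 0.85 ± 0.33 (SE, limma adjusted p = 0.0565), and passed when each clone was compared with itself (0.00113). Tap1, at 0.11 ± 0.20, did not pass (limma adjusted p = 0.653).

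Of the 9 genes 5 rose and 0 fell between d21 and d23 in SI, where 54.6% of all genes were called, 22.7% higher and 32% lower, with a median of 0.79 over the 8 tested beside -0.12 for all genes. Leaving out 1 library gave 3 to 6 of them, the 3 being without SI4 at d21 or without SI2 at d23. B2m was lost in 6 of those fits. Irf1 rose by 1.38 ± 0.22 (SE, limma adjusted p = 0.00117). Fibroblast markers rose in the same comparison, 10 of 12, from a median sum of 1321 RPKM to 4991 RPKM, and 7 of 9 leukocyte markers rose and 1 fell. Epithelial markers gave 3 higher and 0 lower of 8, from a median sum of 356 RPKM to 1825 RPKM, and pluripotency markers 0 higher and 4 lower of 7, from 1233 RPKM to 93.5 RPKM. Their part in these changes was not tested.

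Other genes of the pathway are given by list, for every member that passed the filter. In SI from d21 to d23, 8 of 12 other class I and class I-like genes rose and 0 fell, among them H2-Q2 by 0.91 and Mr1, which presents vitamin metabolites, by 0.92 (limma adjusted p of 0.001 and 0.00131). Of 8 genes for peptide trimming, loading and folding 5 rose, led by Erap1, the trimming peptidase of the endoplasmic reticulum, by 1.13, and Tapbpl by 0.92 (adjusted p of 0.000427 and 0.000692). Of the interferon response genes 11 of 17 rose, including the GTPases Gbp2 by 2.34 and Irgm1 by 2.26 (adjusted p of 0.00044 and 0.000968). Of 7 constitutive subunits, activators and assembly factors 0 rose and 2 fell, Psmb7 by -0.35 and the assembly chaperone Pomp by -0.34 (adjusted p of 0.0433 and 0.0435). Among 20 regulators 14 rose and 2 fell, the NF-kappaB subunit Rela rising by 0.62 and the kinase Jak2 by 1.22 (adjusted p of 0.000713 and 0.000848). Of 4 class II genes 1 rose and 1 fell, H2-DMb1 by 0.45 and H2-Eb1 by -1.50 (adjusted p of 0.0292 and 0.00101). The list medians were 0.67, 0.54, 1.24, -0.27, 0.66 and -0.32 in that order, beside -0.12 for all genes.

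Between SC and SI at d23, where 42.5% of all genes were called, the lists gave mixed counts. Other class I genes gave 1 higher and 2 lower of 12 in SC (H2-Q6 at 0.50 and H2-T22 at -1.09, limma adjusted p of 0.0326 and 0.0396), and loading genes 0 and 2 of 8, the chaperones Pdia3 at -0.89 and Calr at -0.79 (adjusted p of 0.0392 and 0.0409). Constitutive proteasome genes gave 2 higher and 0 lower of 8, and interferon response and class II genes 0 of 17 and 0 of 4. Regulators gave 2 higher and 9 lower of 20, among the lower the interferon receptor chains Ifngr1 at -1.02 and Ifnar2 at -0.83 (adjusted p of 0.0255 and 0.028). Medians were 0.02 for other class I, -0.39 for loading, 0.45 for constitutive proteasome, -0.59 for regulators and -0.50 for interferon response genes, beside -0.01 for all genes.

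Within the SC clones, 2 days without the drug gave no call on the 9 genes in the fit that treats the libraries as unpaired, where 3.79% of all genes passed (454, with 2322 at an unadjusted p under 0.05). Each clone can be compared with itself, because the titles name it at both times, and in that fit Psmb8, Tap2 and Psmb9 rose. Psmb8 went from 3.26, 2.11, 9.91 and 10.74 RPKM to 10.54, 10.98, 32.94 and 22.82 RPKM, by 3.23, 5.20, 3.32 and 2.12 times in SC1 to SC4. Its log2 difference was 1.51 ± 0.16 with clones as a block (SE, limma adjusted p = 0.00768), and 1.51 ± 0.52 without (adjusted p = 0.154). Tap2 was 1.59 to 2.65 times its d21 level, a difference of 0.75 ± 0.13 (SE, adjusted p = 0.0214 with the block and 0.0889 without). Psmb9 was 1.74 to 2.37 times, 0.59 ± 0.13 (SE, adjusted p = 0.0386 with the block and 0.435 without). These 3 calls stand beside 13.4% of all genes with the block (1600).

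The molecule itself gave no such call in SC. Without the block B2m differed by -0.22, H2-D1 by -0.03, H2-K1 by 0.13, Tap1 by 0.40, Tapbp by 0.45 and Psmb10 by 0.72, and none of these passed with the block either. Tapbp and Psmb10 were still above their d21 level in each of the 4 clones, at 1.03 to 2.32 and 1.05 to 2.78 times. B2m in SC2 went from 236.79 to 340.94 RPKM, while SC1, SC3 and SC4 went from 271.46, 181.55 and 243.92 to 195.02, 158.32 and 147.51 RPKM. SC2 was thus the one SC clone whose B2m was higher at d23 than at d21, as it was in each SI clone. At d22 SC1 and SC3 were above their d21 level as well, at 1.03 and 1.11 times. Of the other pathway lists only H2-Q6 passed (0.69, limma adjusted p = 0.0496), 1 of 12 other class I genes.

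Whether the 2 classes responded differently to withdrawal was tested as the difference between their d23 against d21 changes. For B2m it was -0.95 ± 0.39 and for H2-D1 -0.99 ± 0.30 (SE, limma adjusted p of 0.161 and 0.128), the SC change being the smaller. None of the 9 passed, and 0% of all genes did, with 3237 at an unadjusted p under 0.05. With clones as a block B2m, H2-D1 and Psmb9 passed (adjusted p of 0.036, 0.0374 and 0.0355), the last with a difference of 0.60 towards SC, where 23.2% of all genes passed (2944). Without SC2 and without the block, B2m and H2-D1 passed, among 3599 genes.

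Further days on doxycycline gave few calls on the set. In SC between d21 and d27, 0 of the 9 and 0.00847% of all genes (1) passed, with 1363 at an unadjusted p under 0.05. With clones as a block Psmb10 rose by 0.37 ± 0.07 (SE, limma adjusted p = 0.0363), where 11.3% of genes passed (1330). In SI over the same days 0 of the 9 and 0% of genes passed, with 3566 at an unadjusted p under 0.05. Tap1 was at 4.39, 5.02, 2.57 and 3.46 RPKM at d21 and at 2.03, 1.54, 1.99 and 2.22 RPKM at d27, without overlap, a difference of -0.70 ± 0.17 (SE, limma adjusted p = 0.0929). A lack of overlap with d27 lower was seen in 6.04% of all genes tested. Tap2 differed by -0.39 ± 0.10 (adjusted p = 0.0929). Without SI3 at d21, 5 of the 9 passed among 5735 genes, with Tap1, Tap2 and Tapbp lower at d27 and B2m and Psmb10 higher.

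The iPS cells were compared with the same clones kept on the drug to d27, which asks how the established state differs from the induced one. None of the 9 passed unpaired, beside 1.62% of all genes (189, with 3491 at an unadjusted p under 0.05). With clones as a block Psmb8 was higher in iPS cells by 1.25 ± 0.11, Tap2 by 0.67 ± 0.09 and Psmb10 by 0.44 ± 0.09 (SE, limma adjusted p of 0.0193, 0.0275 and 0.041), where 12% of genes passed (1399). Psmb8 went from 3.8, 1.33, 11.4 and 16.55 RPKM at d27 to 9.16, 5.63, 31.61 and 34.84 RPKM in iPS cells, higher in each of the 4 clones. B2m, H2-D1 and H2-K1 differed by -0.31, -0.24 and -0.15 and did not pass in either fit, though B2m passed at -0.57 (adjusted p = 0.0258) without the iPS library of SC2 in the unpaired fit.

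Against feeders the molecule and its loading genes were lower in iPS cells. The log2 differences were -1.75 ± 0.26 for B2m, -1.58 ± 0.13 for H2-D1 and -1.00 ± 0.15 for H2-K1 (SE, limma adjusted p of 0.000261, 1.42e-05 and 0.000322). For Tap1, Tap2 and Tapbp they were -1.12 ± 0.14, -0.75 ± 0.23 and -0.85 ± 0.20 (SE, limma adjusted p of 0.000115, 0.0142 and 0.00437). Psmb8, at -0.09 ± 0.56, did not pass (adjusted p = 0.892), and its iPS libraries lay on both sides of the feeders. Psmb10 was 1.06 ± 0.55 higher (SE, limma adjusted p = 0.107) and passed at 1.50 without the iPS library of SC2 (0.00847). So 6 of the 9 were lower and 0 higher, where 79.9% of all genes were called, 41.2% higher and 38.8% lower, with a median of -0.92 beside 0.06 for all genes. Fibroblast markers were lower too, 10 of 12, and leukocyte markers, 9 of 10. Their part was not tested.

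Irf1 was at 16.48, 7.1, 36.6 and 38.54 RPKM in iPS cells and 4.62, 4.53 and 5.33 RPKM in feeders, and was higher by 1.88 ± 0.50 (SE, limma adjusted p = 0.00729). Psmb6 and Psmb7 were higher in iPS cells by 0.98 and 0.66 (adjusted p of 0.00754 and 0.00106). Of the other lists, 8 of 13 other class I genes were lower and 0 higher, with Fcgrt, the neonatal Fc receptor, at -1.87 and H2-T23 at -1.28. Loading genes gave 5 lower of 8, interferon response genes 12 lower of 19 with Isg15 at -2.09, regulators 13 lower and 3 higher of 20, and class II 2 lower of 2, whereas 5 of 8 constitutive proteasome genes were higher with Psme3 at 1.23. The list medians were -0.64, -0.41, -0.97, -0.94, -0.89 and 0.74 in that order.

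By mean difference, clones at d14 lay nearer to the feeders than iPS cells did for B2m, H2-D1, H2-K1, Tap1 and Tapbp. That was not so for Psmb8, nor for Tap2 in SI. In SC, Tap1 was lower by -0.46 ± 0.14, Tap2 by -0.61 ± 0.18, Tapbp by -0.37 ± 0.09 and Psmb8 by -0.68 ± 0.22 (SE, limma adjusted p of 0.0194, 0.016, 0.00817 and 0.0248). B2m, H2-D1 and H2-K1, at -0.43, -0.37 and -0.21, did not pass (adjusted p of 0.0958, 0.073 and 0.175), but did so after median-ratio rescaling of the libraries, at -0.61, -0.54 and -0.39 (0.0348, 0.02 and 0.0357). These 4 lower and 0 higher of the 9 stand beside 65.8% of all genes, 40.8% higher (4824) and 24.9% lower (2946). Rescaling moved the median of all genes from 0.11 to -0.05 and the split to 3654 higher and 4292 lower. The count of the 9 ran from 1 to 7 on leaving out 1 library, with 7 without SC4, 2 without feeder 1 or feeder 2 and 1 without feeder 3.

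In SI at d14 none of the 9 passed against feeders, beside 44.1% of all genes (5180). B2m was at 239.72, 613.96, 681.91 and 285.62 RPKM in SI1 to SI4, so that SI2 and SI3 lay within or near the feeder range and SI1 and SI4 below it. H2-D1 showed the same order, with 47.02, 128.37, 139.45 and 67.25 RPKM. The fibroblast sum over these 4 libraries ran from 1612 to 4840 RPKM. Rescaling moved the median of all genes from 0.11 to -0.02 and the split from 3767 higher and 1413 lower to 2860 and 3105. Without SI3, Tap1, Tap2 and Psmb8 passed as lower. Leaving out 1 library gave 117 to 6962 genes.

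SI clones 2 days after withdrawal were below feeders in 4 genes: H2-D1 at -0.30 ± 0.07, Tap1 at -0.56 ± 0.15, Tap2 at -0.41 ± 0.08 and Psmb8 at -1.03 ± 0.19 (SE, limma adjusted p of 0.018, 0.0287, 0.0121 and 0.0112). B2m at -0.51 and Psmb10 at -0.49 did not pass (adjusted p of 0.0746 and 0.0518), and Psmb10 did so after rescaling (-0.60, adjusted p = 0.0193). Against these 4 lower and 0 higher, 35.8% of all genes were called, 21.2% higher (2492) and 14.6% lower (1715), a split that rescaling turned to 2107 higher and 2301 lower. The count of the 9 was 7 without SI3, 2 without SI4 or feeder 1 and 0 without feeder 2 or feeder 3, and that of all genes ran from 668 to 7617. Among the 7 without SI3 was Tapbp, which was higher in SI than in feeders (0.61, limma adjusted p = 0.000434). Fibroblast markers gave 1 higher and 0 lower of 12 in this comparison. Interferon response genes gave 11 lower and 0 higher of 19.

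Over the 44 clone libraries, on log2(RPKM + 1), Pearson's r was 0.68 to 0.91 among B2m, H2-D1 and H2-K1 (3 pairs) and 0.83 to 0.84 among Psmb8, Psmb9 and Psmb10 (3 pairs). Between these 2 groups of genes it was -0.50 to 0.11 (9 pairs). For the loading genes r depended on the partner. Tap2 had r of 0.80 with Psmb8 and 0.57 with H2-K1, Tap1 had 0.38 with Psmb8 and 0.64 with H2-K1, and Tapbp had 0.18 with Psmb8 and 0.84 with H2-K1. With Psmb10 and B2m it was lower: 0.40 and 0.33 for Tap2, -0.06 and 0.40 for Tap1, and -0.24 and 0.30 for Tapbp. With the summed fibroblast markers r was 0.93 for H2-D1, 0.87 for B2m, 0.78 for H2-K1, 0.57 for Tapbp, 0.48 for Tap2 and 0.46 for Tap1, but -0.02 for Psmb8 and -0.41 for Psmb9 and Psmb10. Other marker sums gave values of similar size: with leukocyte markers r was 0.84 for H2-D1, 0.75 for B2m and 0.74 for H2-K1, and with pluripotency markers it was -0.77, -0.72 and -0.66. Tapbp had its highest value, 0.77, with epithelial markers. These values describe libraries that share clones, depth and normalization, and carry no test.

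**Figure D4:**
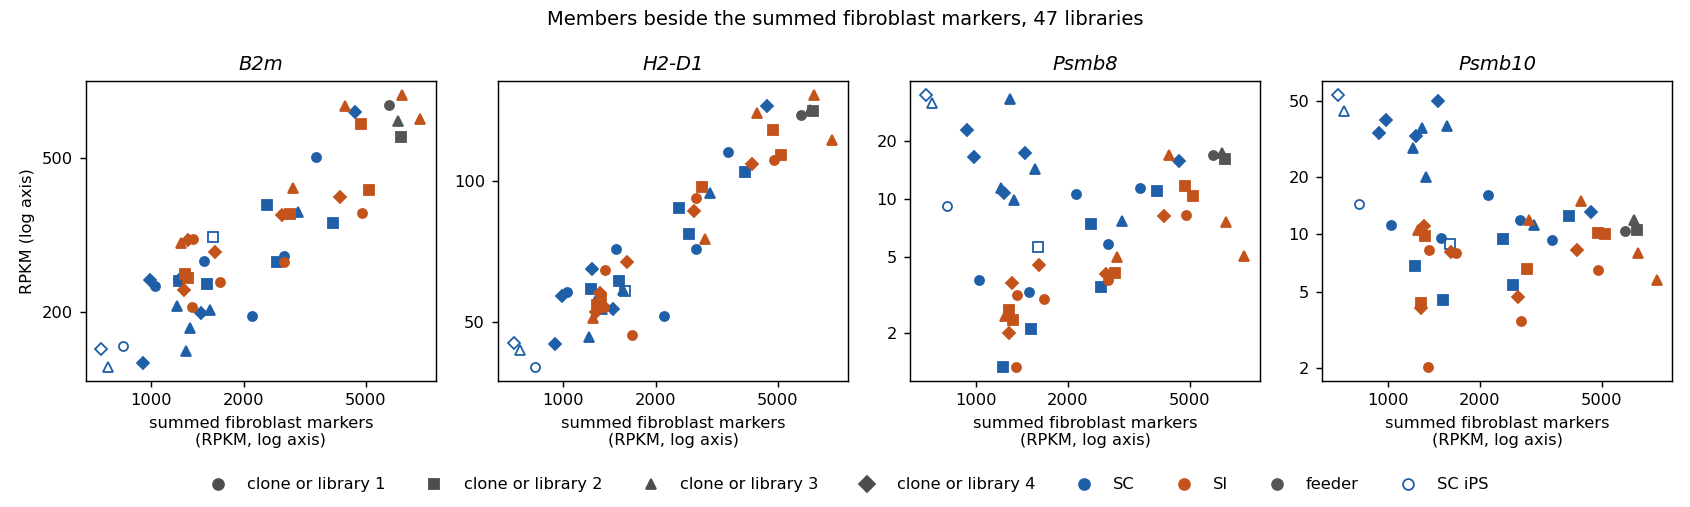
RPKM of B2m, H2-D1, Psmb8 and Psmb10 against the summed RPKM of 12 fibroblast markers in 47 libraries, both axes logarithmic, with iPS libraries as open blue points. H2-D1 climbs with the fibroblast sum (r = 0.93 over the 44 clone libraries) and Psmb8 does not (r = -0.02).

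Irf1 lined up with the immunoproteasome genes over the same 44 libraries, with r of 0.83 for Psmb9, 0.81 for Psmb8 and 0.79 for Psmb10, against 0.54 for Tap2, 0.01 for Tap1, -0.25 for H2-D1 and -0.47 for B2m. Tap1 was closest to the summed interferon response genes, at 0.67. Psmb8, Psmb9 and Psmb10 had 0.37, 0.10 and 0.08 with that sum, and the rest of the set ran from 0.24 to 0.47. The 44 libraries come from 8 clones, and the division of the SC clones in Irf1 recurs among them.

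Likeness over the 12 group means, taken as Pearson's r among 3484 genes that varied, gave as the genes most like the averaged set Unc93b1 (0.975), Dact3 (0.967), Glipr2 (0.941), Sema3f (0.936) and Dlg4 (0.933). For single genes the nearest was Antxr1 for B2m (0.987), Bgn, a matrix proteoglycan, for H2-D1 (0.990), Arhgef17 for H2-K1 (0.970) and Adm for Tap1 (0.902). It was Unc93b1 for Tap2 (0.952), Sbno2 for Tapbp (0.982), Parp10 for Psmb8 (0.944), Pcbp3 for Psmb9 (0.959) and Jade1 for Psmb10 (0.920). With 12 points and this many candidates high values of r are easily reached.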

How the data were processed

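Messenger RNA was sequenced in 47 libraries. The deposited table gives 1 value per gene and library, to 2 decimals, and its unit is not named in the labels or header. The values were read as RPKM made by the authors, because sums differ between libraries and RPKM times gene length sums to 0.788 to 0.998 of what RPKM over all reads would give. CASAVA 1.8 and build mm9 are named per the submitters' processing notes. What aligned the reads, which annotation was counted, and whether strand or filters were used, is not given in the sources used here. Times with and without the drug follow each library's characteristics, since the treatment text states d22 and d23 otherwise.

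The 15 comparisons were each fitted to log2(RPKM + 1) of the groups compared, by lmFit and eBayes with trend from limma 3.58.1 (R 4.3.3). A gene was kept with at least 1 RPKM in as many libraries as the smaller group holds. Two-sided p-values were adjusted over all genes kept by the Benjamini-Hochberg method, with a threshold of 0.05. Descriptions were computed in Python 3.11.15 with pandas 2.3.3 and numpy 2.4.6, and drawn with matplotlib 3.10.9. The fit was tested on simulated data with capped spread and large planted changes. That setting is easier than these data, so it says little of smaller changes. Alternatives were a pseudocount of 0.1, no filter, median-ratio rescaling, the replicate number as a block and leaving out each library in turn. Within a class the number names the same clone at both times, and same-clone deviations correlated in every pair (r of 0.17 to 0.91), so blocked values stand beside the unpaired ones. A different clone correlated more closely for SC3 and SI2 in d27 against d21, and for SC4 in iPS against d27.

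The genes and lists were chosen with earlier results of these data known. Named were the 9 genes, the constitutive counterparts, Irf1, and from each other list up to 2 genes per comparison with the smallest adjusted p, of which the text gives examples. Lists covered other class I genes, peptide loading, constitutive proteasome, regulators, interferon response, class II and markers of fibroblasts, leukocytes, pluripotent, epithelial and endothelial cells. In SC against SI at d23 all 10 pluripotency markers were higher, 0 of 8 epithelial markers were called and no endothelial marker reached the filter. H2-T10, Nlrc5 and Ciita were not analysed here, and 1 further gene is not reported here. Depth limits low genes, where 1 read is worth up to 0.0373 RPKM in a gene of 1 kb. No column of the table was left out.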

Additional observations from a re-analysis of the deposited data

Results flagged for a closer look

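In 7 of 99 sets of 4 libraries (1 gene in 1 group of clones) the highest or lowest library lay far from the other 3, by the ratio of its gap to the whole range. Chance alone gives such a gap in about 1 in 20 sets. In 4 of the 7 the library was clone SI3, on the high side: H2-D1 at d21 (75.38 RPKM) and at d22 (152.76 RPKM), Tap1 at d22 (3.68 RPKM) and Psmb8 at d22 (7.61 RPKM). SI3 also held the highest summed fibroblast markers among the SI clones at d21, d22 and d23, and their part in these values was not tested. B2m in the iPS library of SC2 was high, at 313.13 RPKM, and that library had the highest fibroblast sum of the 4 iPS libraries, 1593.16 RPKM. B2m was low in SI2 at d27 (245.2 RPKM), and H2-D1 was low in SC3 at d27 (46.59 RPKM).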

How the results depend on the processing

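No called difference of a gene of the set changed sign in any alternative (0). Among differences that were not called, rescaling turned the sign of 3 near 0 (H2-K1 in SC against SI at d27, H2-D1 in SC d23 against d21 and B2m in SC d27 against d21), and leaving out 1 library that of 60. Over settings that keep every library 444 single-gene calls stayed on their side of the threshold, 16 moved past it and 4 fell back; over fits without 1 library the numbers were 874, 29 and 57. With the replicate block, SC against SI at d23 gave 2 of the 9 genes and 2373 genes, and at d27 0 genes; SC and SI clones share only a number (r of -0.76 to 0.27). Within a class the block pairs the clones: SC d23 against d21 then gave 3 of the 9 and 1600 genes, SC d27 against d21 gave 1 and 1330, the class difference 3 and 2944, and iPS against SC d27 3 and 1399. In SI d23 against d21 the block added Tapbp. Without the filter the genes called were 1 (SC against SI at d21), 0 (d27), 0 (SC d27 against d21), 2 (SI d27 against d21), 1 (class difference) and 60 (iPS against SC d27); a pseudocount of 0.1 gave 4 for the class difference. Rescaling gave 7 of the 9 for SC d14 against feeders, and split the calls 163 higher and 277 lower (118 and 336 before) in SC d23 against d21 and 79 and 124 (from 49 and 140) in iPS against SC d27. On leaving out 1 library, the 9 gave 0 to 5 calls (SC against SI at d22), 0 to 6 (d23), 0 to 2 (d27), 3 to 6 (SI d23 against d21), 0 to 5 (SI d27 against d21), 0 to 2 (class difference), 0 to 1 (iPS against SC d27), 1 to 7 (SC d14 against feeders), 0 to 3 (SI d14) and 0 to 7 (SI d23). All genes gave 0 to 222 (d21), 0 to 4147 (d22), 2 to 7978 (d23), 0 to 2796 (d27), 104 to 823 (SC d23 against d21), 0 to 1 (SC d27 against d21), 0 to 5735 (SI d27 against d21), 0 to 3599 (class difference), 9 to 2766 (iPS against SC d27), 117 to 6962 (SI d14 against feeders) and 668 to 7617 (SI d23 against feeders). The cause of these shifts was not tested, apart from the smaller number of libraries in each such fit. Depth limits Psmb9, whose lowest value was 0.18 RPKM, where 1 read in a gene of 1 kb is worth 0.0102 to 0.0373 RPKM.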
